A study of Homo sapiens with 12 samples.

Results

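The CXC chemokines examined here are 10 genes, measured by 17 of the 34127 non-control probes of the array: CXCL1, CXCL2, CXCL3, CXCL5, CXCL6, CXCL8 (IL-8), CXCL10, CXCL11, CXCL16 and CXCL12. Their probes were chosen by the gene name given in the array files. Of the 10 genes, 6 could be tested among 15717 genes in all (CXCL1, CXCL2, CXCL5, CXCL8, CXCL16 and CXCL12). CXCL10 and CXCL11 were not well above background on any of the 12 arrays. CXCL3 was left out because its spot was marked as an outlier on 2 arrays, and CXCL6 because no group had it well above background on both arrays. The values of these 4 are described below without a place in the main test.

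Chemokines are small secreted proteins that direct the movement of leukocytes through G protein-coupled receptors. CXCL1, CXCL2, CXCL3, CXCL5, CXCL6 and CXCL8 bind CXCR2 and attract neutrophils, and CXCL10 and CXCL11 bind CXCR3 on activated T cells. CXCL16 is made as a transmembrane protein, is shed by ADAM10 and ADAM17, and binds CXCR6, whereas CXCL12 binds CXCR4. In many epithelia the CXCR2 ligands are transcribed through NF-κB after IL-1β binds its receptor, and CXCL10 and CXCL11 are best known as interferon-induced genes.

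RNA from human proximal tubular cells (HPTCs) was hybridized to 12 one-color arrays, 2 for each of 6 groups. The HK-2 line was immortalized by papillomavirus genes and the RPTEC/TERT1 line by telomerase, and both grow without the other cells of the kidney. After serum and supplement starvation, cells of each line received no ligand (control), 10 ng/mL IL-1β or 500 nM Empa (empagliflozin, an inhibitor of the glucose cotransporter SGLT2), each for 24 h. No array held IL-1β together with Empa, and the 2 arrays of a group are, per the methods, biological duplicates.

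Each of the 4 slides carried the control, IL-1β and Empa arrays of one line and replicate number. The 75th percentile of the signals of an array ranged from 295 to 735 signal units, and between 53.5% and 63.5% of probes were well above background. Across 12632 probes the first HK-2 control array correlated with the second RPTEC/TERT1 control array (r = 0.984) more closely than with the second HK-2 control array (r = 0.875). The second HK-2 and first RPTEC/TERT1 control arrays correlated with r = 0.973, and both RPTEC/TERT1 control arrays with r = 0.870. A further label field names HK-2 as the source of all 12 arrays. Which line an array holds is therefore not settled and the labels may be crossed, so line names below are those of the sample titles, and all values are listed slide by slide. Of the proximal tubule markers, LRP2, AQP1, SLC5A2 (SGLT2), GGT1 and PAX8 were well above background on all 12 arrays, whereas HNF4A and SLC22A6 were not on any. KRT8, KRT18 and EPCAM were above background on all 12 arrays. CDH1 was above background on 6 arrays, those of HK-2 replicate 1 and RPTEC/TERT1 replicate 2. The other 6 did not show it. Of the 6 leukocyte markers, PTPRC and CD68 were above background on all 12 arrays, and the summed signal of the 6 on a control array ranged from 192 to 1244. Of the endothelial markers, CDH5 was above background on all 12 arrays and KDR on none. The summed signal of the 4 fibroblast markers on the control arrays was 67.8 on HK-2 replicate 1 and 60.4 on RPTEC/TERT1 replicate 2, but 2590 on HK-2 replicate 2 and 2566 on RPTEC/TERT1 replicate 1. On the control array of HK-2 replicate 2 only DCN was above background, and on that of RPTEC/TERT1 replicate 1 only COL1A1 and DCN were. COL3A1 was above background on no control array and PDGFRB on no array, so these sums do not describe the set of markers. The share of other cell types was not tested, and in bulk RNA fewer cells of a type and less RNA per cell cannot be told apart.

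The promoters of the CXCR2 ligands are shown first, because they hold a run of bases that all 6 genes share. The RefSeq promoter table (GRCh38.p14) held 9 of the 10 members, all but CXCL16, as windows of 300 bases, 250 before and 50 after the start of transcription. The longest run common to the 6 CXCR2 ligands was 9 bases, GGAATTTCC, and it is in capitals in the 130 bases before each start that follow, read 5′ to 3′ on the strand of the gene.
CXCL1 (chr4:73869263-73869392, plus strand): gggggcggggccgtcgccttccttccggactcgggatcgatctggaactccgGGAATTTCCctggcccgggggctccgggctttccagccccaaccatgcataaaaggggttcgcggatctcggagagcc
CXCL2 (chr4:74099196-74099325, minus strand): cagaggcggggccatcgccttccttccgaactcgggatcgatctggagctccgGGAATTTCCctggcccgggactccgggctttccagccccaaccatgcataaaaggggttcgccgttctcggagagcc
CXCL3 (chr4:74038690-74038819, minus strand): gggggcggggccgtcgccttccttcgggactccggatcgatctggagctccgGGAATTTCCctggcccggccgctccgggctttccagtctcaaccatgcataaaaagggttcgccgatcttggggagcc
CXCL5 (chr4:73998678-73998807, minus strand): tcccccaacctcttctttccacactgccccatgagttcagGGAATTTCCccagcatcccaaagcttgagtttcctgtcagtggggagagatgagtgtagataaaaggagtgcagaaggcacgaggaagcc
CXCL6 (chr4:73836548-73836677, plus strand): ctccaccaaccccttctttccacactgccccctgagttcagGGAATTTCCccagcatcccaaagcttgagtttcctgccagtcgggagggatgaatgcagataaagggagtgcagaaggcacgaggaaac
CXCL8 (chr4:73740439-73740568, plus strand): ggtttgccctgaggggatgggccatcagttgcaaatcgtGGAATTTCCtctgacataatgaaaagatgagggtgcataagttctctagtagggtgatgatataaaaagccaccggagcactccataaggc

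The run began 77 or 78 bases before the start in CXCL1, CXCL2 and CXCL3 and between 89 and 91 bases before it in CXCL5, CXCL6 and CXCL8. On either strand it was found in 162 of 35116 promoters of this length (0.461%). It was chosen from the 6 promoters, so its presence in them is a description and not a test. On the other strand it was also in the windows of both CXCR3 ligands, 176 bases before the start of CXCL10 and 75 bases before that of CXCL11, where it reads as the capitals that follow.
CXCL10 (chr4:76023498-76023687, minus strand): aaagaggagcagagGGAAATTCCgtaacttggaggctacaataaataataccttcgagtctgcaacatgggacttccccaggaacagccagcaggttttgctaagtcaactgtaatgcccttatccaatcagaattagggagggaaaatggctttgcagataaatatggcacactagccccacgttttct
CXCL11 (chr4:76036071-76036200, minus strand): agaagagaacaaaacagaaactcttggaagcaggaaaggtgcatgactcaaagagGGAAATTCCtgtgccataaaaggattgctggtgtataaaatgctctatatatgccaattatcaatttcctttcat

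The window of CXCL12 did not hold the run. The NF-κB consensus, which overlaps this run, matched 7 of the 9 windows and 5.91% of all promoters, with CXCL8 and CXCL12 as the windows without a match. The core of the interferon-stimulated response element (GAAA, any 2 bases, then GAAA again, on both strands) matched the window of CXCL10 alone among the 9, against 3.57% of all promoters. The AP-1 motif (TGANTCA) was in the windows of CXCL8 and CXCL11, against 7.71% of all promoters, and TATAAA was in the same 2 windows, against 11.5%. A match describes the letters of the window and does not show a bound factor.

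IL-1β was compared with control to see which chemokines the cytokine changes in these cells. By the probes that represent the genes, the signals of CXCL1, CXCL2, CXCL5 and CXCL8 were higher with IL-1β than with control on all 4 slides. The other CXCL1 probe was not well above background on any array of HK-2 replicate 2 and RPTEC/TERT1 replicate 1. Folds of the 4 genes ran from 9.47 for CXCL5 to 1208 for CXCL2 where neither array was marked as dim or saturated. They are lower bounds where the IL-1β array was saturated, and uncertain in size where the control array was dim. The highest CXCL2 signals lay near signals marked as saturated, so the size of its largest folds is uncertain. Of the 6 members tested, 4 were higher with IL-1β on all 4 slides, against 15.6% of all genes tested. The slide (the replicate number within a line) was taken to pair the arrays and used as a block. With this block IL-1β raised 4 of the 6 at an adjusted p under 0.05, against 2.09% of all genes raised. The test was limma with Benjamini-Hochberg adjustment over all genes. Without the block 0 of the 6 passed, and 0.0318% of all genes were raised. The same 4 members and 1190 genes in all had an unadjusted p under 0.05 in that fit. With the block and 1 effect for both lines, the same 4 members passed, against 4.73% of all genes raised. CXCL16 and CXCL12 passed in neither fit. The median log2 fold change was 5.35 over the 6 members and -0.10 over all genes.

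All signals below are in signal units after scaling to the array's 75th percentile. Lists of 4 values follow the order HK-2 replicate 1, RPTEC/TERT1 replicate 2, HK-2 replicate 2, RPTEC/TERT1 replicate 1.

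**Figure D1:**
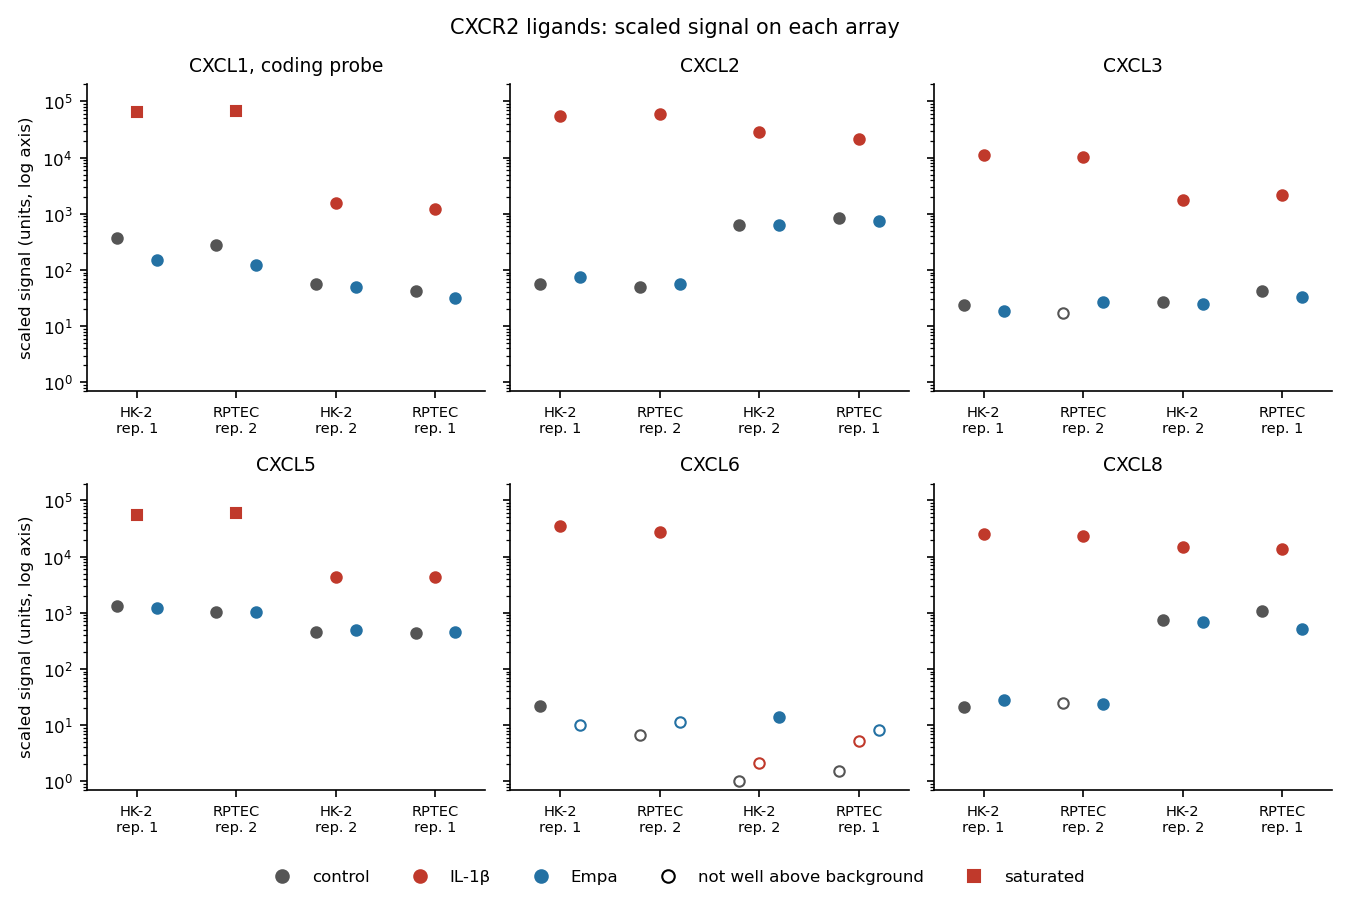
Scaled signal (log axis) of 1 probe for each of the 6 CXCR2 ligands on the 12 arrays, by slide and treatment. Open circles are arrays on which the probe was not well above background (signals under 1 are drawn at 1), and squares are saturated; the IL-1β points of CXCL1, CXCL2, CXCL3, CXCL5 and CXCL8 lie above the control and Empa points of all 4 slides, and those of CXCL6 on 2 slides.

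CXCL8, a main chemoattractant of neutrophils (probe at chr4:74609265-74609324, hg19), had control signals of 21.3, 24.6, 731 and 1059. With IL-1β its signals were 25152, 23343, 14980 and 13557, and with Empa 27.5, 23.7, 693 and 516. The IL-1β arrays did not overlap the others, and they lay closer together than the control arrays. IL-1β was 1179-fold higher than control on the first slide, 951-fold on the second, and 20.5-fold and 12.8-fold on the others. The second control array was not well above background, so the size of the 951-fold difference is uncertain. The log2 fold change over both lines was 7.03 (SE 1.23, adjusted p = 0.0257 by limma with the block). Without the block its SE was 1.73 and its adjusted p was 0.266.

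CXCL2 (probe at chr4:74962985-74963044) had control signals of 56.4, 49.5, 624 and 834. IL-1β signals were 56069, 59832, 28423 and 21591, and Empa signals were 74.1, 55.2, 631 and 754. As for CXCL8, the control level was lower on the slides HK-2 replicate 1 and RPTEC/TERT1 replicate 2 than on the other 2. IL-1β was 994-fold, 1208-fold, 45.6-fold and 25.9-fold higher than control. The first 2 IL-1β signals were not marked as saturated. On the same arrays CXCL5 was marked so at 55560 and 60795, so the size of the first 2 folds is uncertain. The log2 fold change was 7.60 (SE 1.06, adjusted p = 0.0132 by limma with the block). The fit without the block gave an SE of 1.31 and an adjusted p of 0.105.

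CXCL5 (chr4:74861898-74861957), a CXCR2 ligand made by many epithelial cells, had control signals of 1328, 1053, 454 and 439. With IL-1β they were 55560 and 60795, both saturated, then 4294 and 4376, and with Empa 1199, 1044, 502 and 453. Control and Empa arrays overlapped, and all IL-1β arrays lay above them. The increase with IL-1β was at least 41.8-fold and at least 57.8-fold on the saturated slides, and 9.47-fold and 9.97-fold on the others. The log2 fold change was 4.45 (SE 0.55, adjusted p = 0.0101 by limma with the block), with the saturated signals taken at their measured value. Without the block the adjusted p was 0.242.

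CXCL1 has 2 probes, and they disagreed. The probe at chr4:74735646-74735705, which lies in coding sequence, had control signals of 372, 282, 56.5 and 41.4. With IL-1β its signals were 64536 and 68687, both saturated, then 1534 and 1213, and with Empa 150, 121, 48.9 and 31.5. IL-1β was higher than control on all 4 slides, by at least 174-fold and at least 244-fold on the first 2, and by 27.1-fold and 29.3-fold on the others. Its log2 fold change was 6.25 (SE 0.76, adjusted p = 0.00981 by limma with the block), and without the block the adjusted p was 0.296.

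The other CXCL1 probe (chr4:74736850-74736909), nearer the 3′ end, had control signals of 2273 and 2033 on the first 2 slides and saturated IL-1β signals of 57400 and 65083. This was an increase of at least 25.2-fold and at least 32.0-fold. On the slides HK-2 replicate 2 and RPTEC/TERT1 replicate 1 it was not well above background on any of the 6 arrays. It was therefore not eligible for the test, and the coding probe stands for CXCL1. The coding probes of CXCL1 and CXCL2 are shown here because they share sequence, with the bases in capitals identical at 32 of 37 aligned positions (86.5%).
CXCL1 coding probe: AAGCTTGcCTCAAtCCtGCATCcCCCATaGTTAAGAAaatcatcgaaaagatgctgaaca
CXCL2 coding probe: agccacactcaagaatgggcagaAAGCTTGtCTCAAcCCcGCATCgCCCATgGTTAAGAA
No other pair among the 17 probes had more than 26 identical bases in its best ungapped alignment. Whether RNA of CXCL2 or CXCL3 binds the CXCL1 coding probe was not tested.

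The coding probe of CXCL2 (chr4:74964342-74964401) also carries accessions of CXCL3 in the array annotation. Its control signals were 139, 195, 167 and 187, its IL-1β signals 56630, 47074, 5446 and 6426, and its Empa signals 59.5, 62.7, 133 and 174. IL-1β was higher by 407-fold, 241-fold, 32.5-fold and 34.4-fold. The size of the first of these folds is uncertain, because CXCL5 was marked as saturated at 55560 on the same array. On this probe the control levels of the 4 slides were close to each other, unlike on the other CXCL2 probe. Tested on its own, it had a log2 fold change of 6.68 (SE 0.87, adjusted p = 0.0126 by limma with the block, where 1.85% of all probes tested were raised, and 0.0600 without).

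**Figure D2:**
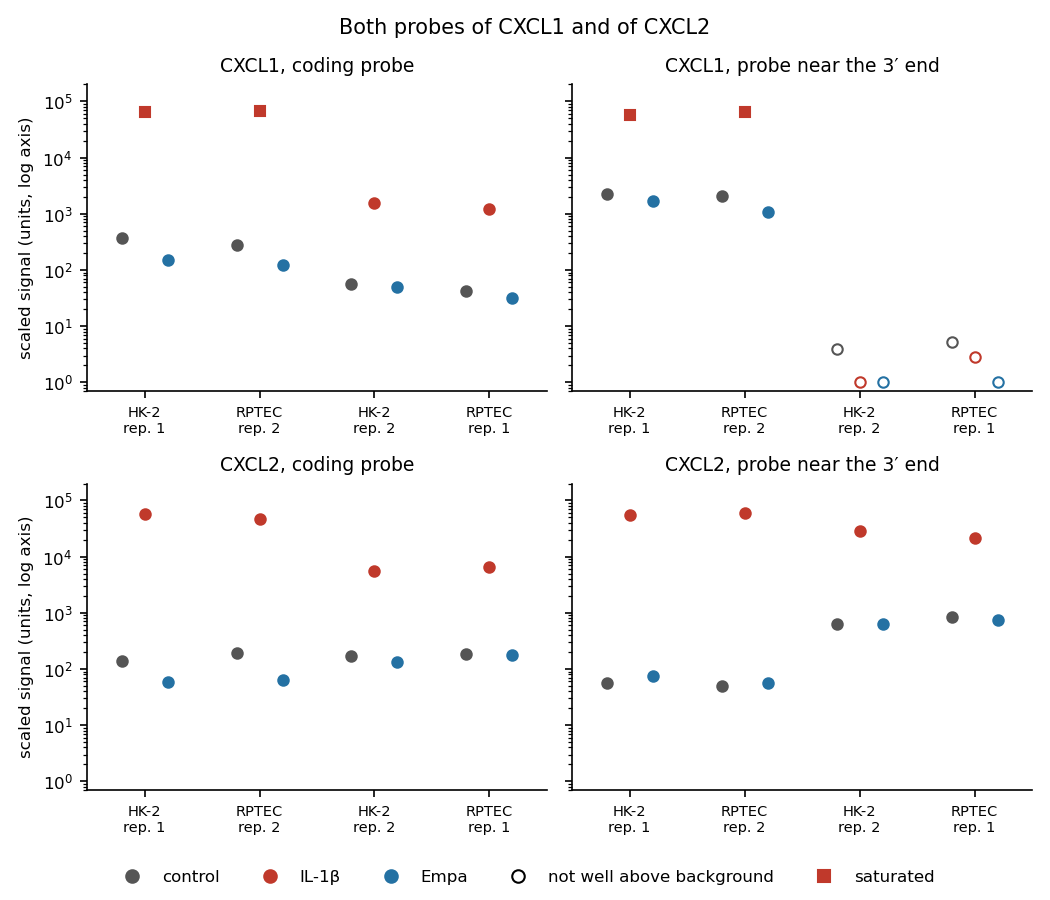
Scaled signal (log axis) of both probes of CXCL1 (top) and of CXCL2 (bottom) on the 12 arrays, by slide and treatment, with open circles for arrays not well above background (signals under 1 drawn at 1) and squares for saturated arrays. The 3′ probe of CXCL1 is open on all 6 arrays of HK-2 replicate 2 and RPTEC/TERT1 replicate 1, where the coding probe is higher with IL-1β than with control.

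CXCL3 (chr4:74902702-74902761) had control signals of 23.3, 16.8, 26.5 and 42.8, of which the second was not well above background. Its IL-1β spot was marked as an outlier on the first 2 slides. With these spots kept, IL-1β signals were 11236, 10382, 1781 and 2142, and Empa signals were 18.9, 27.3, 24.3 and 33.5. IL-1β was 482-fold, 618-fold, 67.3-fold and 50.03-fold higher than control, and the size of the second fold is uncertain because its control was dim. In the fit that kept outlier spots, CXCL3 passed without the block (log2 fold change 7.48, SE 0.69, adjusted p = 0.0174 by limma), the only member to do so, against 0.0373% of all genes raised. With the block and a filter by treatment, chosen after the data were seen, its adjusted p was 0.00944 by limma. In that fit 5 of 8 members were raised, against 1.48% of all genes. The 8 include CXCL6, which entered only through its IL-1β arrays and was not among the 5.

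CXCL6 (chr4:74703368-74703427) was well above background with IL-1β on 2 slides only. Its control signals were 21.9, 6.74, -1.13 and 1.54, of which only the first was well above background. With IL-1β they were 35328, 27457, 2.12 and 5.21, and with Empa 10.3, 11.5, 14.2 and 8.31. IL-1β was 1611-fold higher than control on the slide HK-2 replicate 1. On RPTEC/TERT1 replicate 2 it was 3489-fold higher with the control set to 7.87, the lowest signal well above background on that array. CXCL8 at 24.6 was not well above background on the same control array, so this fold is not a lower bound and its size is uncertain. On the other 2 slides neither the control nor the IL-1β array was well above background. CXCL6 entered the fit filtered by treatment only through its IL-1β arrays, so no test is given for it.

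The arrays titled HK-2 and RPTEC/TERT1 were also compared with each other, with the doubt about these titles given above. On the arrays labelled HK-2 the log2 fold changes of CXCL1, CXCL2, CXCL5 and CXCL8 with IL-1β were 6.10, 7.73, 4.31 and 7.28, and on those labelled RPTEC/TERT1 they were 6.40, 7.47, 4.58 and 6.79. Within a single line 0 of the 6 members passed, with or without the block, although 4 had an unadjusted p under 0.05 in each line without it. With the block 0.248% of all genes were called for HK-2 and 0.255% for RPTEC/TERT1. Without it 0 genes were called for either line, with 588 for HK-2 and 447 for RPTEC/TERT1 at an unadjusted p under 0.05. In that blocked fit the 4 genes had adjusted p-values between 0.0791 and 0.134 in HK-2 and between 0.0835 and 0.197 in RPTEC/TERT1 (limma). For the difference between the lines 0 of 6 members and 0 genes passed in the fits with and without the block, and no member had an unadjusted p under 0.05. The log2 differences (HK-2 minus RPTEC/TERT1) of these 4 genes were -0.30, 0.27, -0.27 and 0.50, each smaller than its SE, which lay between 1.09 and 2.47 with the block. Each title pools a slide of high and a slide of low response, so these values do not show that the lines respond alike.

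**Figure D3:**
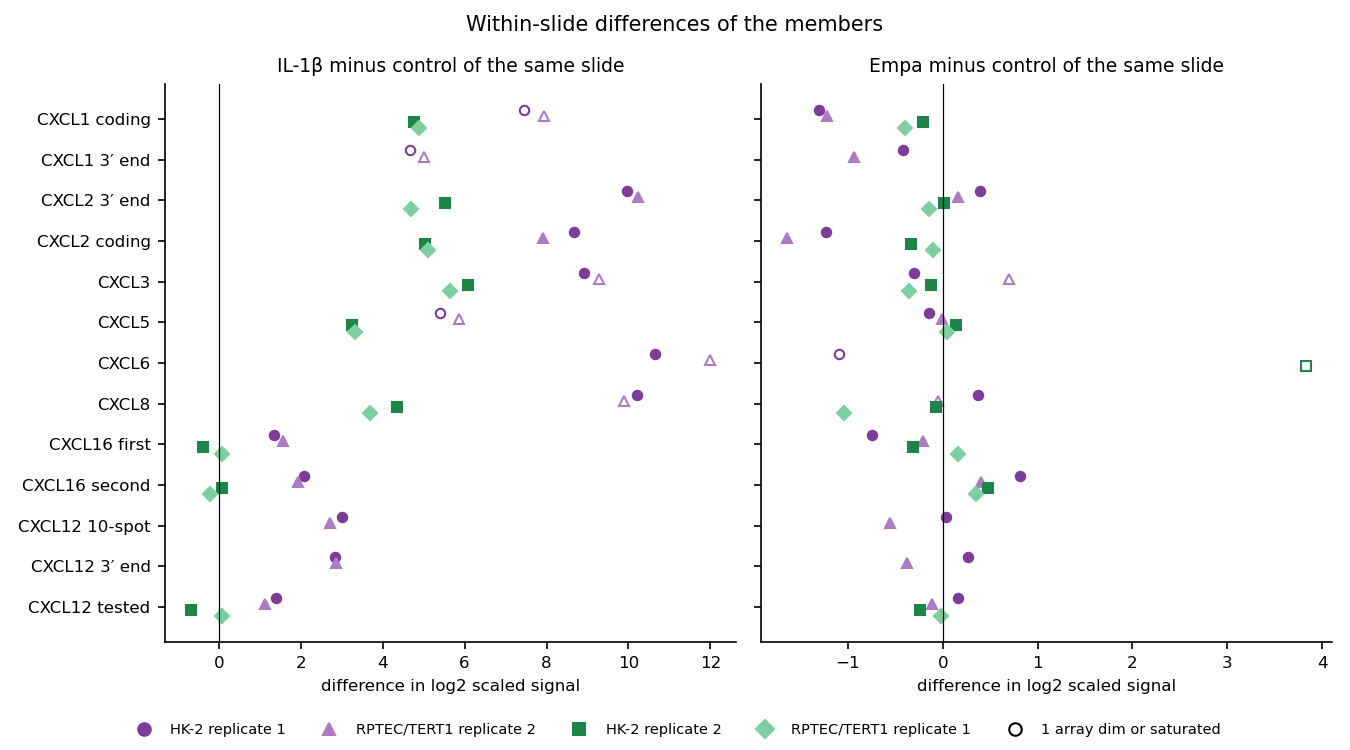
Difference in log2 scaled signal between the IL-1β array (left) or the Empa array (right) and the control array of the same slide, for 13 of the 17 probes of the members (without CXCL10, CXCL11 and the dimmest CXCL12 probe), 1 point per slide. Open symbols mark a dim or saturated array, points where neither array was well above background are left out, and the IL-1β points of the CXCR2 ligands lie between 3.24 and 11.99, while the Empa points, apart from the dim CXCL6 value of 3.83, lie between -1.64 and 0.82.

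CXCL10 and CXCL11, the CXCR3 ligands, were not well above background with control, IL-1β or Empa. The probes of CXCL10 (chr4:76942934-76942993 and chr4:76943520-76943579) and of CXCL11 (chr4:76955615-76955674) had signals of at most 7.10 for CXCL10 and 14.3 for CXCL11. The lowest signal that was well above background ranged from 2.86 to 10.6 between arrays, but it is not a limit of detection. The CXCL11 signal of 14.3, with Empa on RPTEC/TERT1 replicate 2, was over the lowest such signal of its array, 4.86. Its spot was still not marked as well above background, so low levels of both genes could have been missed. The values have no order, and no fold is given.

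CXCL16, which is both an adhesive membrane protein and, once shed, a chemokine, was measured by 2 probes. The first (chr17:4637560-4637619) had control signals of 448, 311, 163 and 87.2, IL-1β signals of 1143, 925, 124 and 92.2, and Empa signals of 266, 269, 132 and 97.7. The second (chr17:4637807-4637866) had control signals of 256, 300, 74.1 and 58.6, IL-1β signals of 1077, 1151, 77.5 and 50.4, and Empa signals of 451, 398, 103 and 74.5. Both probes were higher with IL-1β on the slides HK-2 replicate 1 and RPTEC/TERT1 replicate 2, by 2.55-fold and 2.97-fold on the first probe and 4.21-fold and 3.84-fold on the second. On the other 2 slides IL-1β and control differed by at most 1.32-fold in either direction. The log2 fold change of the tested first probe was 0.65 (SE 0.43, adjusted p = 0.406 by limma with the block, and 1.00 without).

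CXCL12, the ligand of CXCR4, was measured by 4 probes at chr10:44865617-44880453 (hg19, minus strand). The probe spotted 10 times (chr10:44872888-44872947) had control signals of 417 and 239 on the first 2 slides, IL-1β signals of 3355 and 1574, and Empa signals of 427 and 163. It was 8.05-fold and 6.57-fold higher with IL-1β there, and not well above background on any array of the other 2 slides. The probe at chr10:44865617-44865676 had the same pattern, with increases of 7.14-fold and 7.28-fold and no signal well above background on the other 6 arrays.

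The tested CXCL12 probe (chr10:44880394-44880453) was the only one well above background on all 12 arrays. Its control signals were 48.0, 45.5, 38.6 and 25.8, its IL-1β signals 126, 98.7, 24.1 and 27.4, and its Empa signals 53.8, 42.2, 32.7 and 25.5. IL-1β was 2.63-fold and 2.17-fold higher on the first 2 slides, 1.60-fold lower on HK-2 replicate 2, and 1.06-fold higher on RPTEC/TERT1 replicate 1. The log2 fold change was 0.48 (SE 0.37, adjusted p = 0.475 by limma with the block). In the fit filtered by treatment the probe spotted 10 times stood for CXCL12, with a log2 fold change of 1.33 (SE 0.74, adjusted p = 0.336 with the block). The remaining probe (chr10:44871365-44871424) stayed under 45 signal units on every array, with IL-1β signals of 29.8, 25.8, 15.6 and 20.1.

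**Figure D4:**
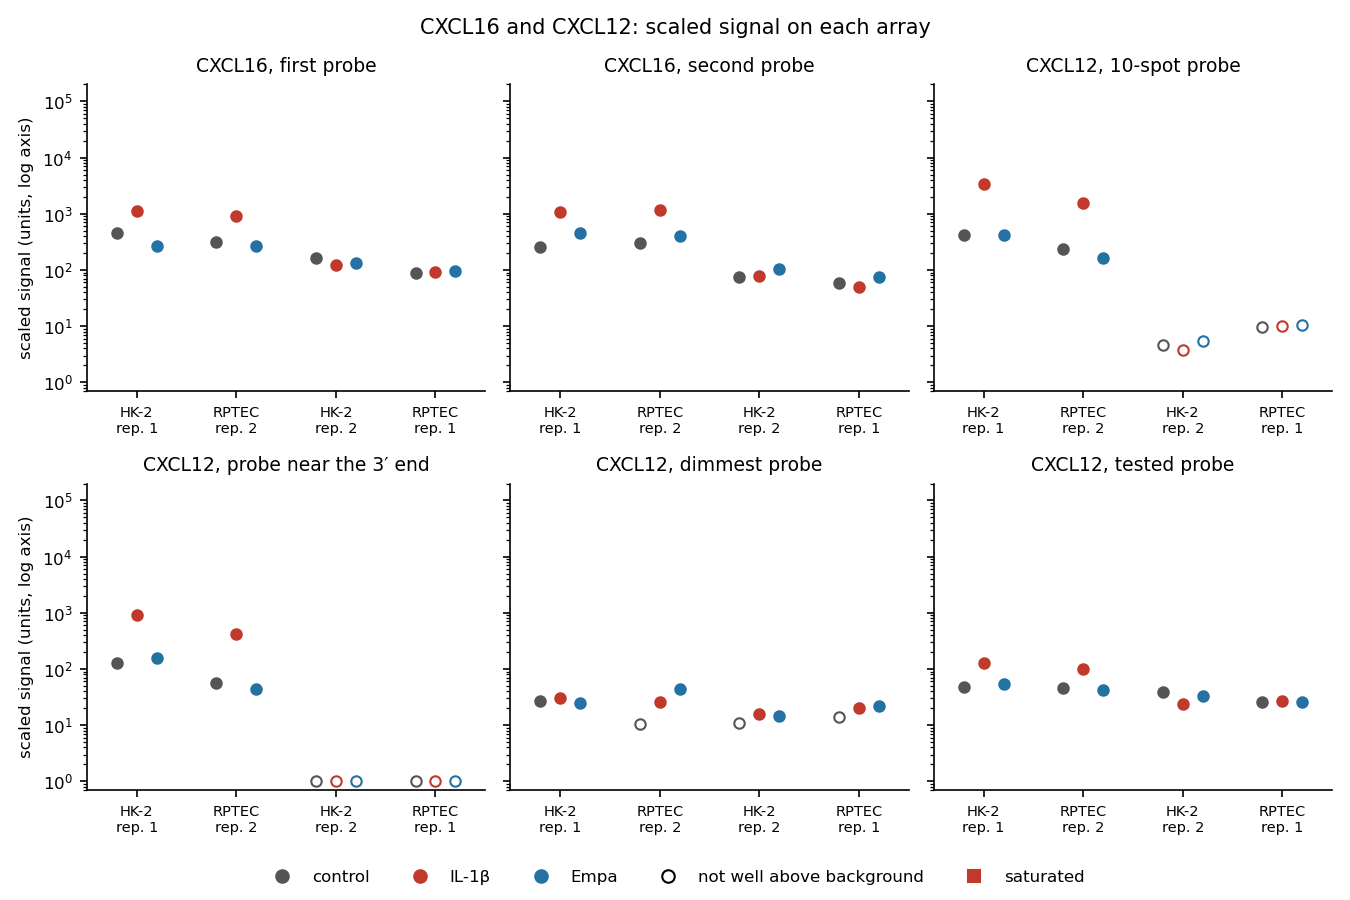
Scaled signal (log axis) of the 2 probes of CXCL16 and the 4 probes of CXCL12 on the 12 arrays, by slide and treatment, with open circles for arrays not well above background (signals under 1 drawn at 1). On the slides HK-2 replicate 1 and RPTEC/TERT1 replicate 2 the IL-1β points of both CXCL16 probes and of 3 CXCL12 probes lie at least 2.17-fold above control.

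Empa was compared with control to see whether the inhibitor changes the basal level of the chemokines. CXCL1 was lower with Empa than with control on all 4 slides, by 2.47-fold, 2.33-fold, 1.16-fold and 1.31-fold on the coding probe. This was 1 of the 6 members tested, against 13.7% of all genes. On the 3′ probe of CXCL1, Empa was 1.34-fold and 1.92-fold lower on the 2 slides where it could be measured. No member passed the test for Empa with or without the block (0 of 6; 0 genes called in either fit, with 204 genes at an unadjusted p under 0.05 without the block and 1439 with it). The log2 fold change of CXCL1 was -0.78 (SE 0.76, adjusted p = 0.722 by limma with the block).

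The coding probe of CXCL2 was also lower with Empa on all 4 slides, by 2.34-fold, 3.12-fold, 1.26-fold and 1.07-fold. Its other probe, which was the one tested, was 1.31-fold, 1.12-fold and 1.01-fold higher on 3 slides and 1.11-fold lower on RPTEC/TERT1 replicate 1. The 2 probes of CXCL16 also went in opposite directions on 3 of the 4 slides with Empa. The dimmest CXCL12 probe was 4.15-fold, 1.33-fold and 1.57-fold higher with Empa on RPTEC/TERT1 replicate 2, HK-2 replicate 2 and RPTEC/TERT1 replicate 1. Control was not well above background there, so the size of these folds is uncertain. On HK-2 replicate 1 this probe was 1.09-fold lower with Empa. CXCL5 differed by at most 1.11-fold from control on any slide. CXCL8 was 2.05-fold lower on RPTEC/TERT1 replicate 1, 1.05-fold lower on HK-2 replicate 2 and 1.29-fold higher on HK-2 replicate 1.

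The log2 fold changes with Empa were 0.11 for CXCL2 (SE 1.06), 0.01 for CXCL5 (SE 0.55), -0.20 for CXCL8 (SE 1.23), -0.28 for CXCL16 (SE 0.43) and -0.05 for CXCL12 (SE 0.37) in the blocked fit. The adjusted p-values of these 5 lay between 0.827 and 0.996 (limma with the block). These SEs are those of 2 arrays per group and do not show that Empa left the genes unchanged. IL-1β and Empa are each set against the same control arrays, so the 2 sets of values are not independent. By the probes that represent the members, CXCL1 alone combined a higher IL-1β signal with a lower Empa signal than control on all 4 slides, a pattern of 1.36% of all genes. The coding probe of CXCL2, which does not represent that gene, had the same pattern, so the result for CXCL2 depends on the probe. That of CXCL1 rests on its coding probe on HK-2 replicate 2 and RPTEC/TERT1 replicate 1, where its 3′ probe was not well above background on any array.

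The CXCR2 ligand probes lie within 355 kb of chromosome 4 (chr4:74609265-74964401, hg19), and probes of 6 other genes or transcripts fall between them. PF4 and PPBP, which encode platelet chemokines of the same family, were well above background with IL-1β on the slides HK-2 replicate 1 and RPTEC/TERT1 replicate 2, at 134 and 137 for PF4 and at 47.7 and 34.4 for PPBP. On these 2 slides the control signals of PF4 were 10.8 and 7.18, and those of PPBP were under 1. PF4 was well above background on 1 further array, that of IL-1β on HK-2 replicate 2 (12.4, against 13.3 on the control array), and on no control or Empa array. It entered the test through IL-1β arrays alone, so no test is given for it, and PPBP was not tested. PF4V1 was not above background on any array, and neither were the pseudogene PPBPP2 and the transcript THC2627589. ENST00000514414, above background on all 12 arrays, had an adjusted p of 0.801 (limma with the block).

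Of the 7 other CXC ligands looked at, CXCL9, CXCL13 and PF4V1 were not above background on any array. CXCL14, a chemokine of epithelia, was named after its values were seen. On the slides HK-2 replicate 1 and RPTEC/TERT1 replicate 2 its control and Empa signals were saturated, at 73822 and 78529 with control. Its IL-1β signals there were 1086 and 1399, at least 67.9-fold and at least 56.1-fold lower than control. On the other 6 arrays it was not well above background, and it was not tested.

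Of the 9 receptors, CXCR2, CXCR6, ACKR1 and ACKR3 were not above background on any array, and CXCR3 was the only one tested, with a log2 fold change of -0.43 with IL-1β (SE 0.24, adjusted p = 0.331 by limma with the block). CXCR4, the receptor of CXCL12, was also named after its values were seen. On the slides HK-2 replicate 1 and RPTEC/TERT1 replicate 2 its control signals were 27.0 and 52.0. Its IL-1β signals there were 1191 and 1249, which is 44.1-fold and 24.0-fold higher. It was not well above background on the other 6 arrays, as was the case for the probe of CXCL12 spotted 10 times.

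Of 25 genes of the IL-1 receptor and NF-κB path, 23 were tested, and IL-1β raised 4 and lowered 0 with the block, where 2.09% of all genes were raised and 3.36% lowered. They were NFKBIA, the inhibitor of NF-κB that NF-κB itself induces (log2 fold change 3.70, SE 0.49, adjusted p = 0.0119), IRAK2, a kinase of the receptor complex (3.54, SE 0.63, adjusted p = 0.0269), NFKBIZ, a nuclear cofactor of NF-κB (2.77, SE 0.56, adjusted p = 0.0386), and IL1RAP, the accessory chain of the IL-1 receptor (1.56, SE 0.21, adjusted p = 0.0122), all by limma with the block. All 4 were higher with IL-1β on all 4 slides, and none passed without the block. The median log2 fold change of the 23 was 0.74, against -0.10 over all genes.

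Among 10 regulators of chemokine mRNA, all tested, IL-1β raised 1 and lowered 0 in both fits, against 2.09% of all genes raised with the block and 0.0318% without. This was ZC3H12A, a ribonuclease that degrades cytokine mRNAs, with a log2 fold change of 4.51 (SE 0.42, adjusted p = 0.00541 with the block and 0.0210 without, limma). Of 15 genes of the interferon path, 14 were tested, of which 2 rose and 1 fell with the block, against 2.09% and 3.36% of all genes, and none passed without it (adjusted p = 0.354, 0.713 and 0.745 in the order below). IFNGR1, a chain of the interferon-γ receptor, rose by 2.01 (SE 0.32, adjusted p = 0.0194) and GBP1, a guanylate-binding protein, by 1.21 (SE 0.25, adjusted p = 0.0386), while IFIT1, an interferon-induced antiviral protein, fell by 2.71 on the log2 scale (SE 0.28, adjusted p = 0.00679, all limma with the block). IFNB1 was not above background on any array.

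Of 14 proteases known to act on CXC chemokines, 7 were tested and none passed for IL-1β in either fit. The 3 with the largest difference among those above background on all 12 arrays were CTSL (-1.78, SE 0.63), DPP4 (-0.74, SE 0.40) and CTSB (0.56, SE 0.23), and the sheddases ADAM10 and ADAM17 had log2 fold changes of 0.21 and 0.03. Of the 11 proximal tubule markers, 6 were tested and 2 passed as lower with IL-1β in the blocked fit, against 3.36% of all genes. One of these 2, SLC34A1, entered the test through control arrays alone, so the count is not read as a result about the markers. LRP2 (megalin) fell by 2.43 on the log2 scale (adjusted p = 0.00360 with the block and 0.269 without, limma). SLC34A1, a phosphate transporter, entered only through the HK-2 control arrays. It was well above background on 4 arrays in all, 1 of them with IL-1β, so neither its p-values nor the size of its difference are given. None of the tested epithelial, leukocyte, endothelial or fibroblast markers passed for IL-1β. No gene of these lists passed for Empa in the fits with and without the block.

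The 5 genes outside the members whose 8 within-slide differences were most like the mean of CXCL1, CXCL2, CXCL5 and CXCL8 were IQCD (r = 0.997), SOD2 (0.996), CTPS1 (0.996), IL6 (0.995) and ACSL5 (0.995), among 12627 genes above background on all arrays. The 8 differences are 4 for IL-1β and 4 for Empa, and both share the control array of their slide. With IL-1β the log2 differences of IL6, a cytokine, lay between 4.56 and 9.40, those of SOD2, the mitochondrial superoxide dismutase, between 2.65 and 6.01, and those of IQCD between 2.40 and 5.47. CTPS1, an enzyme of CTP synthesis, lay between 0.87 and 1.98 and ACSL5, an acyl-CoA synthetase, between 0.83 and 2.64. With Empa the differences of the 5 genes lay between -0.88 and 0.38.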

How the data were processed

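The authors scanned 12 one-color Agilent arrays and extracted them with Feature Extraction, and the deposited intensities are, per the file headers, background-subtracted signals, beside which the files mark outlier spots, saturated spots and those above background. The authors also deposited a table of log2 values described as quantile-normalized, used here as an alternative. From its values, the 3 arrays of a slide share a distribution.

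Outlier spots were left out, spots of a probe averaged, and signals scaled to the 75th percentile, set to 1 unit where lower, and put on the log2 scale. A gene was represented by its brightest probe among those with a value on all 12 arrays that some group had well above background on both its arrays. With limma (version 3.58.1, R 4.3.3) a model of 6 groups was fitted without a block and, as an alternative, with the slide (the replicate number within a line) as a block. P-values were adjusted by Benjamini-Hochberg over 15717 genes, with a threshold of 0.05. The arrays of a number within a line share a slide, and on that ground the numbers were taken to pair the arrays. Deviations from group means correlated within a slide with r between 0.610 and 0.908. With 2 arrays per group these deviations mirror each other, and the 2 slides of a title differ widely. This correlation therefore follows from the difference between the slides and does not by itself show a pairing. Groups came from the sample titles. The procedure was tested on simulated data.

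Where an array was not well above background, its signal was replaced, for a fold, by the higher of its own signal and the lowest signal well above background on that array. Brighter spots of the same array could also lack the mark, so these folds are not strict bounds. Folds with a saturated array are lower bounds, and all are given per slide. Named were all 10 members with every probe, list genes past the threshold or else the 3 with the largest difference among those above background on all arrays, chemokine-cluster neighbors and the 5 genes most like the CXCR2 ligands. The members and lists were chosen with earlier results of these data known. Alternatives were the replicate block, quantile normalization, normexp (offset 50), the authors' table, other filters, every probe, outlier spots kept and a floor of 5 units. Further ones were the scan day as a block, each array left out, 1 effect per treatment and, within single lines, an unpaired t-test. The methods name that t-test for the PCR and ELISA data and no test for the arrays. The number of arrays limits the precision. Figures were drawn with matplotlib 3.10.9.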

Additional observations from a re-analysis of the deposited data

How the results depend on the processing

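Averaged over the lines, IL-1β raised 0 members without a block, and 0 under quantile normalization, normexp, the authors' table, no filter, the filter on all 12 arrays, every probe, the floor of 5 units and the scan day as a block. In the authors' table the medians of the HK-2 control arrays were 8.29 for replicate 1 and 6.89 for replicate 2. Such differences between slides add to the spread in a fit without the block. The count was 4 with the replicate block and 4 with 1 effect per treatment and the block (CXCL1, CXCL2, CXCL5 and CXCL8). It was 1 (CXCL3) with outlier spots kept. Of the settings added after the data were seen, the block gave 4 with every probe tested, quantile normalization, normexp, the authors' table and the floor of 5 units, 4 with every probe and 1 effect, and 5 (CXCL3 added) with outlier spots kept together with the filter by treatment, with 1 effect or separate lines. Without the block, outlier spots kept together with the filter by treatment gave 1, and so did outlier spots kept without a filter. Leaving out 1 array was run without the block only and left 1 array in a group. No count is given for it, and it does not bear on the counts of the blocked fits. All counts for Empa, for single lines and for the difference between the lines remained 0. The unpaired t-test was run for single lines only and gave 0 there. The counts over all 4 slides stayed within 1.5 times. The blocked fits gave adjusted p-values up to 0.0223 for CXCL1, 0.0204 for CXCL2, 0.0177 for CXCL5 and 0.0372 for CXCL8, and log2 fold changes with IL-1β under all settings ranged from 4.80 to 7.71, 6.56 to 8.62, 3.501 to 5.40 and 5.44 to 8.39.

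Only members that missed the threshold changed direction. With Empa, CXCL12 was 0.0232 with quantile normalization, 0.10 with normexp and 0.0033 with the authors' table, and CXCL5 was -0.00758, -0.0373 and -0.0293 there, with and without the block. When each array was left out, log2 fold changes with Empa ranged from -0.26 to 0.15 for CXCL12, from -0.73 to 0.18 for CXCL16, from -0.91 to 1.12 for CXCL2, from -0.38 to 0.40 for CXCL5 and from -1.56 to 1.16 for CXCL8. With IL-1β, those of CXCL12 ranged from -0.12 to 1.08 and those of CXCL16 from -0.18 to 1.48. The lowest values came without the IL-1β array of HK-2 replicate 1 for CXCL12 and of RPTEC/TERT1 replicate 2 for CXCL16. The cause was not tested. Signals near background depend on the floor, saturated signals hide the size of an increase, and folds of CXCL3, CXCL6 and CXCL8 on dim control arrays are uncertain in size.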
